A study of Mus musculus with 2 samples.

Results

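The genes described here are 10 writers, erasers and protectors of DNA methylation, taken by name from the 26127 genes quantified by RNA-seq in mouse embryonic stem (ES) cells. They are the DNA methyltransferase genes Dnmt1, Dnmt3a, Dnmt3b and Dnmt3l, the Dnmt1 partner Uhrf1, the 5-methylcytosine dioxygenases Tet1, Tet2 and Tet3, the DNA glycosylase Tdg, and Zfp57. All 10 were found and all 10 had at least 1 RPKM (reads scaled to transcript length and to the reads of the library) in 1 or both samples. The samples were unmodified ES cells (WT) and ES cells with a targeted G34R mutation of histone H3.3 (G34R), both of strain 129S1/SvImJ, kept below passage 20 in serum and leukaemia inhibitory factor. In the mutant line, a G34R coding sequence was placed under the endogenous promoter of a single H3f3a allele by targeting and Cre excision, while the other H3f3a allele and both H3f3b alleles stayed WT. Each cell line gave 1 library, so no value below has a replicate, and a difference of genotype, of clone and of culture cannot be told apart.

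DNA methylation in mammals is placed on cytosines of CG dinucleotides. Dnmt3a and Dnmt3b set new methylation, helped by the catalytically inactive Dnmt3l, and Dnmt1 copies existing methylation onto the new strand after replication, guided by Uhrf1. Tet enzymes oxidise 5-methylcytosine, Tdg excises the most oxidised forms, and the KRAB zinc finger protein Zfp57 binds methylated imprinting control regions and shields them from demethylation. Mouse ES cells are known for high expression of Dnmt3b, Dnmt3l, Tet1 and Tet2.

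The smallest RPKM steps of short single-exon genes put the depth of the libraries near 88.3 M (WT) and 72.7 M (G34R) reads. The median log2 (G34R/WT RPKM) of the 10728 genes with at least 1 RPKM in 1 sample was -0.0544. The targeted gene H3f3a had 8.17 RPKM in WT and 4.89 in G34R cells, and H3f3b had 68.84 and 58.76 RPKM. RPKM does not separate the mutant allele from the WT allele, so these values do not check the mutation itself. Of the 10 ES cell markers, Pou5f1 (194.34 and 189.46 RPKM) and Tdgf1 (261.25 and 255.61 RPKM) were high in both samples, while Nanog (127.07 and 52.24 RPKM) and Zfp42 (180.30 and 16.40 RPKM) were more than 2-fold lower in G34R cells. Klf4 (25.14 and 43.71 RPKM) and Utf1 (61.89 and 108.56 RPKM) were higher, by less than 2-fold, and the 10 markers had a median log2 ratio of -0.04 and summed to 1080 and 879 RPKM. The summed RPKM in WT and G34R cells was 145 and 58.3 for 8 primed epiblast markers (111 and 26.2 without Dnmt3b, which is among them), 20.9 and 33.4 for 9 primitive endoderm markers, 0.84 and 2.51 for 6 mesoderm markers, 1.48 and 0.94 for 7 fibroblast markers, and 20.7 and 11.1 for the 6 trophoblast markers with a row. In WT cells most of the primed epiblast sum without Dnmt3b came from Lefty1 (39.91 and 5.39 RPKM) and Lefty2 (37.82 and 3.89 RPKM). Of that list, Pou3f1 (1.80 and 2.31 RPKM), named after its values were seen, alone was higher in G34R cells. Lama1 (11.56 and 20.26 RPKM) held most of the primitive endoderm sum in both samples. Eomes (0.43 and 1.88 RPKM) held most of the mesoderm sum in both. Of the mesoderm list, Kdr (0.14 and 0.06 RPKM), named after its values were seen, alone was lower in G34R cells. The fibroblast markers Dcn, Lum and Postn were listed at 0 in both samples. Genes of chromosome 8 had a median log2 ratio of 0.36 and the 5 genes of chromosome Y one of -3.91, against -0.21 to 0.00 for the other chromosomes, and none of the 10 genes lies on chromosome 8 or Y. The part of these differences between the libraries in the values below was not tested.

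Dnmt1 was the only one of the 10 genes whose RPKM differed at least 2-fold between the samples. It had 8.14 RPKM in WT and 44.43 in G34R cells, 5.46-fold higher in G34R cells (log2 ratio 2.45). The other 9 genes had log2 ratios between -0.29 and 0.47, with a median of 0.13. None of the 10 was lower at least 2-fold in G34R cells, where 6.47% of all genes with at least 1 RPKM in 1 sample were, and 1 of 10 was higher at least 2-fold, where 4.13% were. At a threshold of 1.5-fold the counts among the 10 were again 0 lower and 1 higher, beside 14.1% and 11.4% of all genes. The median log2 ratio of the 10 genes was 0.15. In bulk RNA, more cells that express a gene and more RNA per cell cannot be told apart. Estimated reads and intervals assume that the authors divided by the merged exon length of GENCODE M1. Without replicates the fold could not be compared with the spread between samples, and each interval given below covers counting error only.

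**Figure D1:**
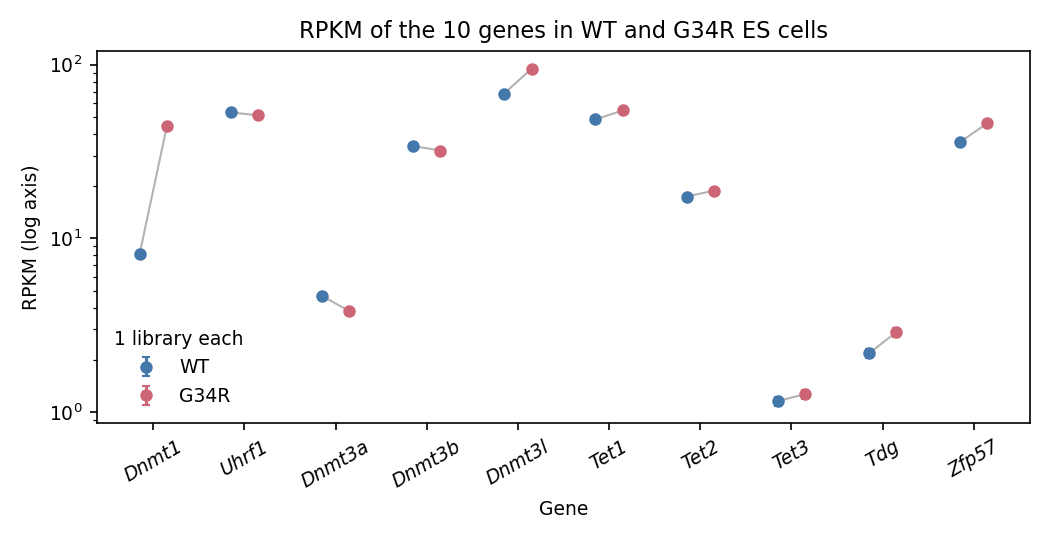
RPKM (log axis) of each of the 10 genes in WT (blue) and G34R (red) ES cells, 1 library each; error bars are 95% Poisson intervals of the estimated reads and are mostly smaller than the points. Dnmt1 goes from 8.14 to 44.43 RPKM, while the lines of the other genes are close to level.

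Among writers, Dnmt1 (ENSMUSG00000004099.8) lies on the minus strand of chromosome 9, at chr9:20711650-20757317 in mm9, with 39 exon blocks that sum to 5264 bases. Its estimated reads were 3784 in WT cells and 17003 in G34R cells, which gives a 95% counting interval of 5.27 to 5.65 for the fold (exact binomial). None of its 3404 stretches of 50 bases within annotated exons has an identical match elsewhere in mm9, so reads of this length within exons belong to a single place. In WT cells 64.6% of genes with at least 1 RPKM in 1 sample had a lower RPKM than Dnmt1, and in G34R cells 94.4%. Of the 10728 genes with at least 1 RPKM in 1 sample, 54 had a log2 ratio as high as Dnmt1 or higher, Dnmt1 included.

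**Figure D2:**
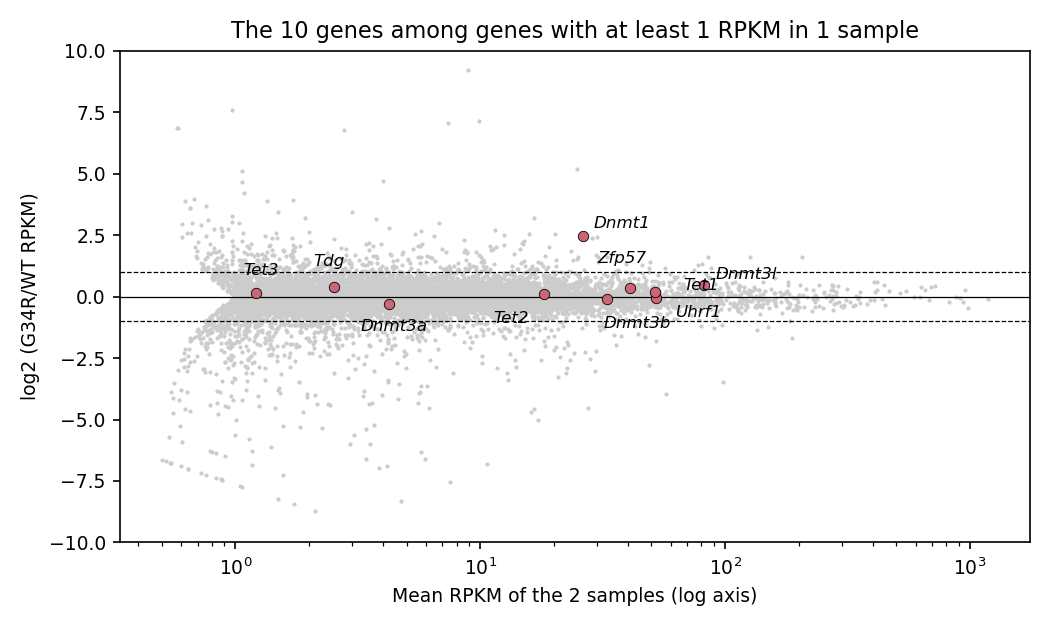
log2 (G34R/WT RPKM) against mean RPKM (log axis) for the 10728 genes with at least 1 RPKM in 1 sample (grey) and the 10 genes (red, named), with an RPKM of 0 set to 0.01; dashed lines mark 2-fold. Dnmt1 stands at 2.45, and the other 9 genes lie between the dashed lines.

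The region upstream of Dnmt1 is shown because this is the gene that differed, beside that of its partner Uhrf1, whose RPKM was close in both samples. RefSeq promoters, given for the GRCm38.p6 build, were found for all 10 genes (19 starts), and each of the 19 matched mm9 at 1 place. The stretch of 250 bases before the Dnmt1 start that lies 106 bases outside the deposited gene is at chr9:20757424-20757673 of mm9 on the minus strand, and that before the Uhrf1 start nearest to the deposited gene start is at chr17:56442510-56442759 on the plus strand. CG dinucleotides, the sites of methylation, are in capitals:
Dnmt1: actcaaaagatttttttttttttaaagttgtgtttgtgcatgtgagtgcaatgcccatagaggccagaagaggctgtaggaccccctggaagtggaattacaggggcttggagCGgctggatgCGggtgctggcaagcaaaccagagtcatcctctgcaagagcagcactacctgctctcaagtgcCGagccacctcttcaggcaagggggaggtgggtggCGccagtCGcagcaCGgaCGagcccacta
Uhrf1: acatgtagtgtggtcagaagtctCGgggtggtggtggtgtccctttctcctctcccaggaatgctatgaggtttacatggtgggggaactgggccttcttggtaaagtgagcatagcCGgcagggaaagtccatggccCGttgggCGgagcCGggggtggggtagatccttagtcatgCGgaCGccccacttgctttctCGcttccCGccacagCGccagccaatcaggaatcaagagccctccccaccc

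These stretches hold 7 CG in Dnmt1 and 10 in Uhrf1. Another RefSeq start of Dnmt1, 250 bases inside the deposited gene, has 33 CG in its RefSeq promoter (250 bases before to 50 after the start), and so has a start of Uhrf1 that lies 992 bases inside its deposited gene. That number is reached by 8.56% of all 32851 RefSeq promoters. The letters TTTGGCGC, a form of the binding motif of the E2F cell cycle factors, were searched on both strands. They were present at 1 of the 19 starts, the same inner start of Dnmt1, and in 0.514% of all promoters. In Dnmt1 they lie in the 50 bases after this start. They are not in the 250 bases before it, of which 166 lie in annotated exons. The letters TTTCCCGC were present at 0 of 19 and in 1.07% of all promoters. The Dnmt1 match is at chr9:20757018-20757047 of mm9 on the minus strand, with the letters in capitals:
Dnmt1: gcgcggggcagcgTTTGGCGCgggctgtgc

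A match of letters is not evidence of binding, and the RPKM files give no value per start, so the use of the Dnmt1 starts could not be compared between the samples.

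None of the measured genes around Dnmt1 had a difference of that size. Of the 40 genes with at least 1 RPKM in 1 sample and a midpoint within 1000 kb of it, none was higher at least 2-fold in G34R cells and 3 were lower, Icam1 (24.96 and 9.74 RPKM), Zfp846 (log2 ratio -1.64) and Zglp1 (-1.09), which are named after their values were seen. Their log2 ratios ran from -1.64 to 0.73 with a median of 0.01. The nearest by midpoint on one side were Eif3g, a translation initiation factor subunit, with 89.81 RPKM in WT and 71.93 in G34R cells, and Ppan, a ribosome biogenesis gene, with 30.90 and 29.10 RPKM. On the other side the nearest was S1pr2, a sphingosine phosphate receptor, with 9.21 and 10.48 RPKM.

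**Figure D3:**
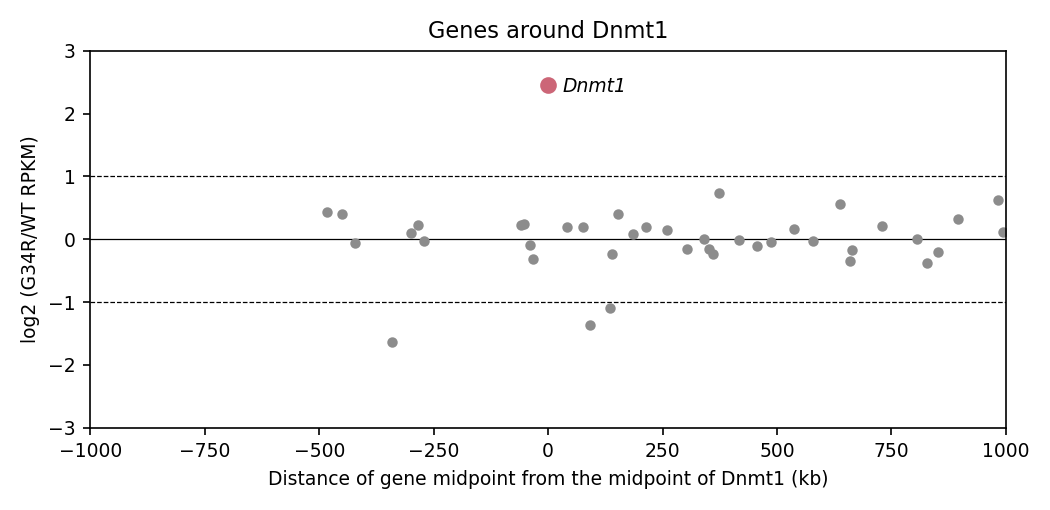
log2 (G34R/WT RPKM) of genes with at least 1 RPKM in 1 sample against the distance of their midpoint from that of Dnmt1 (kb); dashed lines mark 2-fold. The 40 neighbours (grey) lie between -1.64 and 0.73, and Dnmt1 (red) at 2.45.

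Uhrf1 (ENSMUSG00000001228.8, chr17:56442744-56462909) recognises hemimethylated DNA and brings Dnmt1 to it. It had 53.22 RPKM in WT and 51.10 in G34R cells, a log2 ratio of -0.06 (counting interval -0.09 to -0.03, from about 20014 and 15822 reads). The RPKM of Dnmt1 was therefore 0.153 times that of Uhrf1 in WT cells and 0.869 times in G34R cells. This ratio is taken within each sample and does not depend on how the libraries are scaled. Of the 50-base stretches in Uhrf1 exons, 23.1% have an identical match elsewhere in mm9, so part of its reads may be placed elsewhere.

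Dnmt3b (ENSMUSG00000027478.9, chr2:153475186-153513466), the de novo methyltransferase typical of ES cells, had 34.06 RPKM in WT and 32.08 in G34R cells. Dnmt3a (ENSMUSG00000020661.9, chr12:3806007-3914443), the other de novo enzyme, was low in both, with 4.68 and 3.82 RPKM. Its log2 ratio of -0.29 (counting interval -0.35 to -0.24) was the lowest of the 10 genes. Dnmt3l (ENSMUSG00000000730.7, chr10:77504692-77526367), their cofactor, had the highest RPKM of the 10 genes in both samples, 68.30 in WT cells and 94.92 in G34R cells. Its log2 ratio of 0.47 (0.45 to 0.50) was the largest after Dnmt1. Dnmt3l overlaps Aire on the opposite strand (4.06 and 4.13 RPKM), which strand-specific counting keeps apart.

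The make-up of the methyltransferase genes thus differed mainly in Dnmt1. Summed RPKM over the 4 Dnmt genes was 115.18 in WT cells and 175.25 in G34R cells. Dnmt1 held 7.07% of this sum in WT cells and 25.4% in G34R cells, Dnmt3l 59.3% and 54.2%, Dnmt3b 29.6% and 18.3%, and Dnmt3a 4.06% and 2.18%. Within the Dnmt3 genes alone, Dnmt3l held 63.8% and 72.6%, and the RPKM of Dnmt3l was 2.01 times that of Dnmt3b in WT cells and 2.96 times in G34R cells. The Dnmt3b RPKM was 7.28 and 8.4 times that of Dnmt3a, whose merged exons in GENCODE M1 sum to 16642 bases, against 9685 in its longest coding transcript. Shares and ratios between genes depend on the length used. Scaled to the longest coding transcript, the WT values were 8.14 for Dnmt1, 8.04 for Dnmt3a, 40.3 for Dnmt3b and 112 for Dnmt3l. The G34R values were 44.4, 6.56, 37.9 and 156.

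**Figure D4:**
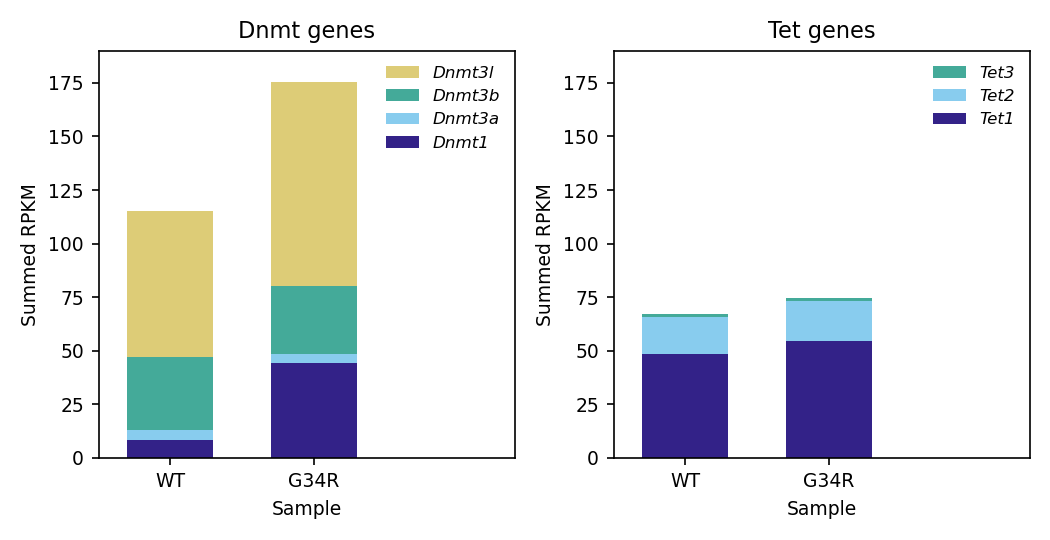
Summed RPKM of the 4 Dnmt genes (left) and the 3 Tet genes (right) in WT and G34R ES cells, stacked by gene, 1 library each. The Dnmt1 block grows from 8.14 to 44.43 RPKM, while the Tet column goes from 67.04 to 74.64 RPKM.

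Among erasers, the Tet genes kept nearly the same proportions in both samples. Tet1 (ENSMUSG00000047146.8, chr10:62267318-62361866), the main Tet enzyme of ES cells, had 48.44 RPKM in WT and 54.53 in G34R cells. Tet2 (ENSMUSG00000040943.7, chr3:133126643-133207354) had 17.44 and 18.84 RPKM. Tet3 (ENSMUSG00000034832.8, chr6:83312367-83391672), best known from the oocyte and zygote, had the lowest RPKM of the 10 genes, 1.16 and 1.27. Tet1 held 72.3% of the summed Tet RPKM in WT cells and 73.1% in G34R cells, Tet2 26% and 25.2%, and Tet3 1.73% and 1.7%. The log2 ratios were 0.17 (0.15 to 0.19) for Tet1, 0.11 (0.08 to 0.15) for Tet2 and 0.13 (0.01 to 0.25) for Tet3.

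Tdg (ENSMUSG00000034674.11, chr10:82092573-82113544), the glycosylase that removes oxidised methylcytosine and mispaired thymine, had 2.18 RPKM in WT and 2.89 in G34R cells. Its log2 ratio was 0.41 (0.28 to 0.53), but its reads may be divided with a near-identical copy, Gm5806 at chr15:82346705-82349711. The coding sequences of both are 1194 bases long and differ at 14 positions (98.8% identical). A stretch of 60 bases that holds 3 of these differences is shown, and no stretch of that length in the coding sequence holds more. It lets a reader see how little a 50-base read has to tell them apart. Written 5′ to 3′, they are coding bases 917 to 976, with the differing bases in capitals:
Tdg: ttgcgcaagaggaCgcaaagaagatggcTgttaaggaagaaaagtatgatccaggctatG
Gm5806: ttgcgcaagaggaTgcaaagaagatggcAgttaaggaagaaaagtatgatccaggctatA

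Of the 50-base stretches in Tdg exons, 28.2% occur unchanged in Gm5806 and 49.2% occur somewhere else in mm9. Gm5806 had 2.98 RPKM in WT and 2.01 in G34R cells, the opposite direction. Summed, both rows gave 5.16 and 4.90 RPKM and a log2 ratio of -0.07. The merged exons differ in length (5374 bases in Tdg, 2908 in Gm5806), so this sum weights a Gm5806 read more than a Tdg read. Its sign need not be that of the pooled reads, estimated at 1799 in WT and 1554 in G34R cells. The library totals were near 88.3 M and 72.7 M reads. How reads were divided is not known, and the direction of Tdg is uncertain.

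Zfp57 (ENSMUSG00000036036.9, chr17:37138108-37147580), the protector of imprints, had 35.88 RPKM in WT and 46.08 in G34R cells. Its log2 ratio was 0.36 (0.32 to 0.40), from about 11995 and 12683 reads, and none of its 50-base exon stretches matched elsewhere. Its fold of 1.28 stayed under both thresholds.

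By RPKM, the order in WT cells was Dnmt3l, Uhrf1, Tet1, Zfp57, Dnmt3b, Tet2, Dnmt1, Dnmt3a, Tdg and Tet3. In G34R cells it was Dnmt3l, Tet1, Uhrf1, Zfp57, Dnmt1, Dnmt3b, Tet2, Dnmt3a, Tdg and Tet3, so Dnmt1 moved from place 7 to place 5 and Tet1 and Uhrf1 changed places. The closest neighbours were Zfp57 and Dnmt3b in WT cells, 1.05 times apart, and Zfp57 and Dnmt1 in G34R cells, 1.04 times apart. No neighbours had overlapping counting intervals, but with 1 library per cell line the spread over samples is not known. Scaled to the longest coding transcript instead of all merged exons, Zfp57 moved to place 3 in WT cells and place 2 in G34R cells, and Dnmt1 kept places 7 and 5. In WT cells Dnmt1 (8.14) and Dnmt3a (8.04) were then nearly level.

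Genes that work with the 10, and genes known to be silenced or imprinted through DNA methylation, were followed as 8 lists. In these lists 86 of 102 genes had at least 1 RPKM in 1 sample, and Rhox5 and Kcnq1ot1 had no row. Of these 86, 10 were lower and 4 higher at least 2-fold in G34R cells, beside 6.47% and 4.13% of all genes. Their median log2 ratio was -0.11. The silenced genes gave 5 of the lower and 1 of the higher, and the imprinted genes 4 and 2. In the other lists only Gadd45g was lower and Gadd45a higher at least 2-fold. Among partners of maintenance methylation 0 of 8 reached 2-fold in either direction, and their median log2 ratio was -0.22. Pcna, the replication clamp that Dnmt1 binds, had 55.10 and 55.22 RPKM in WT and G34R cells. Usp7, a deubiquitinase that binds Dnmt1, had 38.19 and 32.81 RPKM. Hells, a chromatin remodeller needed for normal DNA methylation, had 37.31 and 23.65 RPKM, the lowest log2 ratio of this list (-0.66). Cdca7l had 9.37 and 6.86 RPKM.

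The list for the methyl donor cycle also had 0 of 11 genes past 2-fold, with a median log2 ratio of -0.05. Tdh, the threonine dehydrogenase on which mouse ES cells rely, had 76.73 and 85.52 RPKM, and Gldc, the glycine decarboxylase, 52.28 and 40.77 RPKM. The largest differences were in Mtrr, which reactivates methionine synthase, and Ahcyl1 (log2 ratios -0.70 and 0.51).

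Among 17 genes of oxidation and base excision, 1 was lower and 1 higher at least 2-fold, with a median log2 ratio of 0.11. Gadd45a, a stress-induced gene tied to DNA repair and demethylation, had 6.19 RPKM in WT and 12.95 in G34R cells (log2 ratio 1.06, 0.95 to 1.18). Its relative Gadd45g went the other way, with 2.65 and 1.15 RPKM (-1.20, -1.55 to -0.86, from about 274 and 98 reads). Parp1 and Apex1, repair enzymes that act after a base is removed, were abundant, with 125.68 and 150.24 RPKM and with 60.14 and 65.97 RPKM.

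None of 6 genes listed with the readers of methylated CG passed 2-fold (median log2 ratio 0.20). Mbd3 had 21.64 and 21.94 RPKM, Mbd2 1.56 and 2.37 RPKM, and Mbd1 1.99 and 2.87 RPKM.

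None of the 8 partners in imprint protection passed 2-fold, with a median log2 ratio of -0.19. Trim28, the corepressor that Zfp57 recruits, had 326.77 RPKM in WT and 222.49 in G34R cells (log2 ratio -0.55). Dppa3, which shields methylation in the zygote, came just short of 2-fold, with 7.94 and 3.98 RPKM. Ctcf, the insulator protein, had 17.09 and 19.79 RPKM, and lies on chromosome 8.

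None of 10 recruiters and regulators of the Dnmt3 genes passed 2-fold (median log2 ratio -0.24). Prdm14, a repressor of Dnmt3b and Dnmt3l in ES cells, had 6.19 and 3.48 RPKM. Ehmt2, an H3K9 methyltransferase, had 20.91 and 30.85 RPKM, and Nsd1, an H3K36 methyltransferase, 28.96 and 24.70 RPKM.

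The next list held germline and early embryo genes known to be kept silent by promoter methylation. Of 15 listed, Rhox5 had no row and 8 had at least 1 RPKM in 1 sample. Of these 8, 5 were lower and 1 higher at least 2-fold in G34R cells (median log2 ratio -1.66), beside 6.47% and 4.13% of all genes. The median was -1.14 with a pseudocount of 1 RPKM and -0.78 with no filter on low RPKM, and Rhox2a and Slc25a31 reached 1 RPKM in WT cells alone. Mael, of the piRNA pathway, had 9.14 and 2.70 RPKM, Hormad1, of the meiotic chromosome axis, 8.23 and 2.79 RPKM, and Slc25a31, the testis ADP/ATP carrier, 1.75 and 0.37 RPKM. Dazl, a germ cell RNA-binding protein, had 7.07 and 1.60 RPKM. Rhox2a, one of a tandem array of close copies, had 1.77 RPKM in WT cells and was listed at 0 in G34R cells. The gene that was higher was Ddx4, a germ cell helicase, with 2.64 and 7.49 RPKM. Dazl and Ddx4 are named for these counts, after their values were seen.

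Of 24 imprinted genes tied to control regions that Zfp57 binds, 18 had at least 1 RPKM in 1 sample, and Kcnq1ot1 had no row. Of these 18, 4 were lower and 2 higher at least 2-fold in G34R cells (median log2 ratio -0.35), beside 6.47% and 4.13% of all genes. Meg3 reached 1 RPKM in WT cells alone. The noncoding RNA genes Rian and Meg3, neighbours on chromosome 12, went from 33.35 to 1.02 RPKM and from 3.63 to 0.14 RPKM. The other genes past 2-fold, named for these counts after their values were seen, were H19 (20.68 and 2.79 RPKM), Mest (23.67 and 10.65 RPKM), Peg3 (5.17 and 24.92 RPKM) and Grb10 (4.64 and 27.12 RPKM). Peg10 and Snrpn, which had the highest mean RPKM, had 45.63 and 56.93 RPKM and 35.53 and 21.22 RPKM. DNA methylation itself was not measured, so no level of methylation at these genes stands beside the RPKM.

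**Figure D5:**
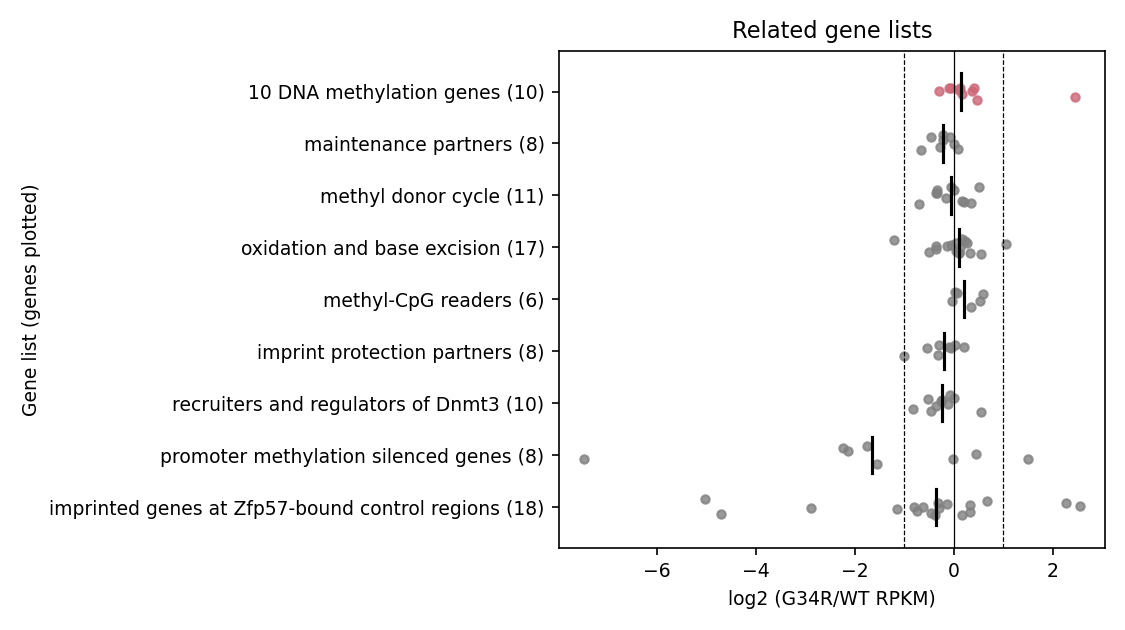
log2 (G34R/WT RPKM) of the 10 genes (red) and of the 8 related lists (grey), with the number of genes that had at least 1 RPKM in 1 sample; black bars are medians, dashed lines mark 2-fold, and points are spread vertically only for clarity. The 6 lists of enzymes, readers and regulators centre between -0.24 and 0.20, and the 2 lists of silenced and imprinted genes spread more widely.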

How the data were processed

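Expression was measured in 1 stranded total RNA library per cell line, read as 50 bp single ends. The authors used STAR (2.4.2a in the submitters' processing notes) for alignment to mm9, counted primary alignments per gene strand-specifically in Seqmonk over merged isoforms, and deposited RPKM corrected for transcript length, written to 2 decimals. In these files 7949 (WT) and 9030 (G34R) genes are listed at 0. Coordinates of genes are those of the deposited files, and 26030 of 26127 rows matched a GENCODE M1 gene of mm9, which gave gene identifiers and exons.

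Log2 ratios (G34R over WT) were taken of the RPKM, after raising values under 0.01 RPKM to 0.01. All genes with at least 1 RPKM in 1 sample formed the background, and 2-fold was the threshold. With 1 library per cell line no test was run. The library totals were estimated as those at which the RPKM of single-exon genes under 800 bases with fewer than 6 reads become whole reads. At these totals 96.1% (WT) and 97.1% (G34R) of such values fell within 0.2 of a whole number. The totals were chosen for the best fit to these same values, so the percentages are not a separate check of them. Reads per gene were estimated from RPKM, merged exon length (GENCODE M1, assumed to be the length the authors used) and this total. Intervals are 95%, exact binomial for ratios and exact Poisson for levels, and cover counting error only. Reads are not counted by molecular identifiers.

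Named genes were the 10 genes, the H3.3 genes, and in each list the 2 with the highest mean RPKM, the 2 with the largest absolute log2 ratio, and all past 2-fold where these were 4 or fewer. The genes and lists were chosen with earlier results of these data known. Exact 50-base matches were searched on both strands of mm9. Calculations were tested on simulated data. Python 3.11.15, NumPy 2.4.6, pandas 2.3.3, SciPy 1.17.1, Biopython 1.88 and matplotlib 3.10.9 were used. Protein sequences, ChIP-seq and reads over codon 34 were not analysed here.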

Additional observations from a re-analysis of the deposited data

How the results depend on the processing

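Dnmt1 was the only one of the 10 genes past 2-fold under every alternative run, with log2 ratios from 2.31 (pseudocount of 1 RPKM) to 2.50 (ratios centred on the median). None of the 10 was lower at least 2-fold under any of them. The signs of the other genes held except that of Tdg, which turned to -0.07 when the RPKM of Gm5806 was added, an alternative chosen after seeing the data. This alternative adds RPKM of genes of unlike length, so its sign need not be that of the pooled reads. Uhrf1 came to -0.00 with centring. Rescaling moved every ratio by 0.054 (median), 0.046 (RPKM sum) or 0.021 (75th percentile). In the related lists, 10 of 86 genes were lower and 4 higher at least 2-fold, beside 6.47% and 4.13% of all genes. A 1.5-fold threshold gave 17 lower and 6 higher, beside 14.1% and 11.4% of all genes. At least 5 RPKM in 1 sample gave 6 lower and 4 higher, beside 4.09% and 3.09%. No filter on low RPKM gave 13 lower and 7 higher, beside 13.1% and 6.5%. A change of filter also changes how many list genes are counted, a number not given here. A pseudocount of 1 RPKM reduced the genes past 2-fold to 3.34% lower and 1.85% higher, and no filter raised them to 13.1% and 6.5%. The median of the silenced germline list was -1.14 with a pseudocount of 1 RPKM and -0.78 with no filter. No paired analysis was possible because each cell line has 1 library. RPKM to 2 decimals hides single reads on long genes.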

Other observations

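The 3 genes whose pair of values was nearest to that of Dnmt1, by Euclidean distance over log2 (RPKM + 0.01) in the 2 samples, were Id1 (9.22 and 48.04 RPKM in WT and G34R cells, distance 0.212), Sfn (9.35 and 50.60 RPKM, 0.274) and 6430527G18Rik (10.28 and 36.80 RPKM, 0.432). They lie on chromosomes 2, 4 and 12, away from Dnmt1 on chromosome 9. Id1 is an inhibitor of basic helix-loop-helix factors, and Sfn encodes a 14-3-3 protein. With 2 values per gene such likeness is a description of these libraries.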
